A study of Mus musculus with 2 samples.

Results

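The 8 genes Cd44, Cd24a, Cd36, Itga4, Itga5, Itgb1, Tspan33 and Tspan8 encode cell surface proteins used for adhesion or for staging of red cell precursors. They were chosen by symbol. Each symbol matched 1 of the 43346 mouse gene entries, and together they held 30 of 103639 transcript entries. The cells were G1E-ER4, an immortalised male mouse erythroid line without a working Gata1 of its own, which carries a fusion of GATA1 with the hormone-binding domain of an estrogen receptor. Both libraries, biological replicates 1 and 2 of 1 group, came from cells that had 10 nM 17beta-estradiol for 24 h, which releases the fusion's activity and starts red cell differentiation. Polyadenylated RNA was sequenced from both fragment ends. No untreated cells were analysed here, so the values describe levels after treatment and not a change. Both libraries carry the same biosample record, so their spread may be technical.

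Integrins are pairs of an alpha and a beta chain that hold cells to matrix and to other cells. On red cell precursors the pair of Itga4 and Itgb1 products binds VCAM1 on macrophages and fibronectin, and the pair of Itga5 and Itgb1 products binds fibronectin. CD44, the hyaluronan receptor, is lost from the surface as mouse erythroblasts mature and is used with cell size to sort their stages. CD24, a small protein held by a lipid (GPI) anchor, and CD36, a scavenger receptor that takes up fatty acids and binds thrombospondin, are also followed on maturing red cells. Tetraspanins are small proteins with 4 passes through the membrane that organise their partners there. Tspan33, also called Penumbra, belongs to the TspanC8 group, which escorts the protease ADAM10, and in mice it is needed for normal red cell formation. Tspan8 is better known from epithelial and tumour cells.

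The transcripts that held most of Tspan33, Itgb1 and Itga4 are told apart by the junctions printed here, from GENCODE M21 transcripts on mm10, plus strand, with 15 bases on each side. They are shown because the transcript shares below turn on them. Tspan33-201 and Tspan33-202 (chromosome 6, 29694222 to 29718559 for the gene) differ at the start of exon 3, at 29710587 or 29710590. Capitals mark the 3 coding bases that Tspan33-201 has and Tspan33-202 lacks, in the window chr6:29709984-29710604.
Tspan33-201: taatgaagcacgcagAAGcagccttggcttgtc
Tspan33-202: taatgaagcacgcagcagccttggcttgtc
Their reading frames hold 283 and 282 codons, so both encode nearly the same protein. Itgb1-201 has 16 exons and 798 codons. Itgb1-202 lacks exon 4 (chromosome 8, 128710253 to 128710475, 223 bases, coding in Itgb1-201), and its annotated frame stops after 58 codons. Capitals mark that exon, in the window chr8:128707145-128713222.
Itgb1-201: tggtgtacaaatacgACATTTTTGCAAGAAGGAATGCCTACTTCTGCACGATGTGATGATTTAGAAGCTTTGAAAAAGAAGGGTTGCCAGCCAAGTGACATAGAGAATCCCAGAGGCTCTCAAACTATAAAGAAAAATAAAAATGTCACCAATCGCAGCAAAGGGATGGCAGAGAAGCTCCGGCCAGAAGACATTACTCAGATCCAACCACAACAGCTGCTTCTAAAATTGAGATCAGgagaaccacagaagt
Itgb1-202: tggtgtacaaatacggagaaccacagaagt
Itga4-204 follows the coding Itga4-201 to the end of exon 4 and then runs 864 bases into the intron (last exon 79272993 to 79273986 on chromosome 2, window chr2:79273108-79273137 for Itga4-204), where capitals mark the intron bases.
Itga4-201: ccccgtgttacaaagattatacgagaaaat
Itga4-204: ccccgtgttacaaagGTAAGTGGGACTTGA
Itga4-205 does the same at the end of exon 2, for 1553 bases (window chr2:79256285-79256314 for Itga4-205), with intron bases again in capitals.
Itga4-201: aacagctccagctgggtagccccagtggag
Itga4-205: aacagctccagctggGTGAGTTGGGTCCCC
The lengths of these transcripts were the same in the deposited tables and in M21.

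Replicate 1 had 70451042 estimated counts over all genes and replicate 2 had 13841487, so replicate 1 was 5.09 times as deep. With 3 counts as the limit, a gene at 0 could have had up to 0.0426 CPM (counts-per-million) in the deeper library and up to 0.217 CPM in the other, and these limits and the intervals below cover counting error only. The erythroid label held: 8 of 9 erythroid markers had at least 1 TPM (transcripts-per-million, a level corrected for length) in both libraries, with 122878 and 45332 TPM of the beta globin gene Hbb-bs. Gata1 had 3038 and 2940 TPM, but its reads can come from the GATA1 fusion that the line carries. The exception was Epb42, at 1.32 and 0.29 TPM. Markers of other cells were low: summed TPM in replicates 1 and 2 was 0.58 and 1.11 for 8 macrophage genes, 0.75 and 0.78 for 6 mast cell and basophil genes, and 0.06 and 0.38 for 5 stromal and endothelial genes, with no member at 1 TPM in both libraries. Of 8 megakaryocyte markers 3 reached that level (22.8 and 37.9 TPM summed, mostly Gp1ba), and of 5 lymphoid markers 1 did (2.05 and 7.23 TPM summed, mostly Ptprcap, with 1.82 and 6.62 TPM). Genes with 0 counts in both libraries were 4 of the 8 macrophage, 4 of the 6 mast cell and basophil, 2 of the 8 megakaryocyte, 2 of the 5 lymphoid and 1 of the 5 stromal and endothelial markers. The part of other cells in the levels below was not tested.

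Pairs of values below are replicate 1 and then replicate 2. Of the 8 surface genes 4 were present and 4 stayed below 1 TPM. In bulk RNA, fewer cells with a gene and less RNA per cell cannot be told apart. Tspan33, Cd24a, Itgb1 and Itga4 had at least 1 TPM in both libraries, a level that 17.2% of all genes reached. That share is over all 43346 entries, coding or not, of which 27833 had 0 counts in both libraries. It stands beside each count of present genes below, but it is not the share of protein-coding genes. Cd44 and Tspan8 had counts without reaching it, and Cd36 and Itga5 had 0 counts in both libraries. All 16 estimated counts of these genes, 8 in each library, were whole numbers.

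**Figure D1:**
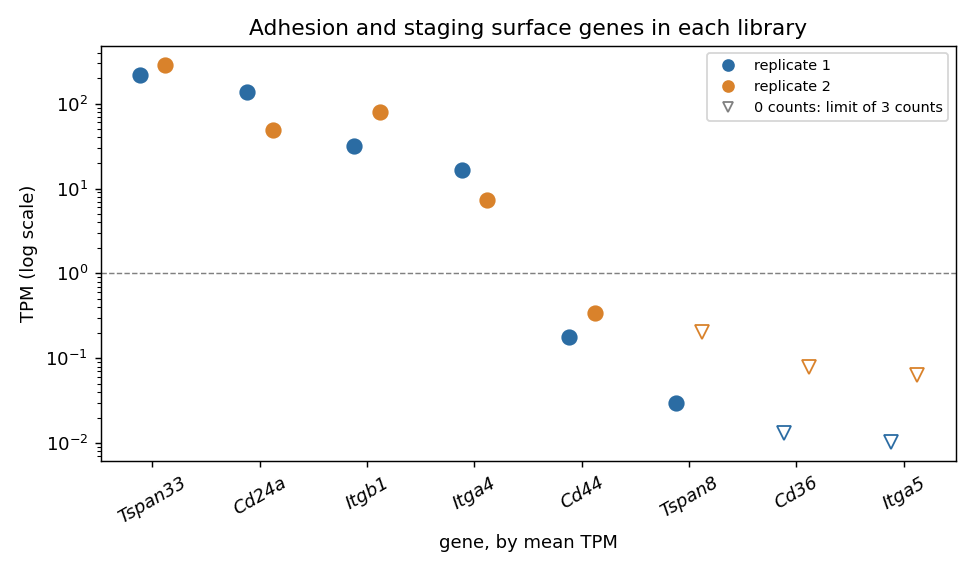
TPM (vertical axis, log scale) of each of the 8 genes in replicates 1 and 2, in order of mean level; points are libraries, open triangles stand at the 3-count limit where the count was 0, and the dashed line is 1 TPM. Tspan33, Cd24a, Itgb1 and Itga4 lie above the line in both libraries, and the other 4 genes lie below it.

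Tspan33 (ENSMUSG00000001763.10) was the highest. Replicate 1 had 216 TPM and replicate 2 had 287 TPM (251.5 ± 49.8 TPM, mean ± SD, n = 2), from 27487 and 6003 counts. Its mean lay at the 93.3rd percentile of the genes with at least 1 TPM in both libraries. Cd24a (ENSMUSG00000047139.8, chromosome 10, 43578284 to 43584265, plus strand) came next with 136 and 48.6 TPM (92.2 ± 61.7 TPM), from 15550 and 914 counts. It has a single transcript in the tables.

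Itgb1, the beta chain shared by many integrins (ENSMUSG00000025809.11, chromosome 8, 128685654 to 128733200, plus strand), had 31.8 and 80.0 TPM (55.9 ± 34.1 TPM), from 6263 and 2555 counts. Itga4, the alpha chain of the VCAM1 receptor (ENSMUSG00000027009.14, chromosome 2, 79255426 to 79333123, plus strand), had 16.7 and 7.29 TPM (11.985 ± 6.64 TPM), from 3040 and 254 counts. Cd24a and Itga4 were higher in replicate 1, Tspan33 and Itgb1 in replicate 2. In the order of mean levels, Tspan33 stood above Cd24a and Itgb1 above Itga4 without overlap of their libraries, but Cd24a and Itgb1 overlapped, and Itgb1 was the higher of these in replicate 2.

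Cd44 (ENSMUSG00000005087.13, chromosome 2, 102811141 to 102901665, minus strand) was low, with 0.18 and 0.34 TPM (0.26 ± 0.113 TPM). Its 47 counts in replicate 1 made 0.667 CPM (95% Wilson interval 0.502 to 0.887), and its 11 counts in replicate 2 made 0.795 CPM (0.444 to 1.42), and these intervals overlap. The deposited posterior means of Cd44 were 0.27 and 0.83 TPM, and their deposited intervals, 0.185 to 0.361 TPM and 0.434 to 1.27 TPM, did not overlap. Cd36, with 0 counts in both libraries, had posterior means of 0.02 and 0.1 TPM. A posterior mean could thus be higher in replicate 2 without counts, and the posterior means alone do not show a difference in Cd44. Tspan8 (ENSMUSG00000034127.10, chromosome 10, 115816832 to 115849893, plus strand) had 3 counts in replicate 1, listed as 0.03 TPM, and 0 in replicate 2.

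Cd36 (ENSMUSG00000002944.11, chromosome 5, 17781690 to 17888801, minus strand) had no count. At its length the limit of 3 counts stood at 0.0130 TPM in replicate 1 and 0.0799 TPM in replicate 2. Itga5 (ENSMUSG00000000555.6, chromosome 15, 103344286 to 103366763, minus strand) likewise had none, with limits of 0.0103 and 0.0632 TPM. For both genes replicate 1, the deeper library, set the tighter bound.

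Ratios within a library do not depend on how the libraries are scaled, and 11 pairs were compared. In 5 of them 1 gene had 0 counts in a library, which fixes the direction, and the other 6 had the same direction in both libraries. Itga4 was at least 1620.4-fold higher than Itga5 in replicate 1 and at least 115-fold in replicate 2, taking 3 counts per library for Itga5. Itgb1 likewise exceeded Itga5 at least 3092-fold and at least 1267-fold. Cd24a exceeded Cd36 at least 10411.5-fold and 608-fold, and these limits take the higher gene at its listed TPM, without its counting error. Itga5 was thus not detectable at this depth.

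Other ratios are given as the log2 ratio of TPM with 0.1 added. Itgb1 over Itga4 was 0.93 in replicate 1 and 3.44 in replicate 2 (2.18 ± 1.77). Itgb1 over Itgb2, the beta chain of leukocyte integrins, was 2.47 and 6.17, and over Itgb3, the platelet integrin beta chain, 5.94 and 6.41. Cd24a over Cd44 was 8.92 and 6.79 (7.86 ± 1.51), and Cd44 over Itgb1 was -6.83 and -7.51 (-7.17 ± 0.48). Among these 5 pairs, Itgb1 over Itgb3 and Cd44 over Itgb1 differed least between the libraries, and Itgb1 over Itgb2 differed most. Taking 3 counts per library for Cd36, Cd44 was 13.8-fold and 4.26-fold higher, low as it was. These values leave out the counting error of Cd44, which had 47 and 11 counts, so they are not lower bounds.

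For both integrin chains most TPM lay on transcripts without the full reading frame. In Itgb1 the leading transcript was Itgb1-202, the form without exon 4, whose annotated type is nonsense-mediated decay, the removal of messages with an early stop. Its 25.3 TPM made 79.5% of the gene in replicate 1, and its 72.9 TPM made 91.1% in replicate 2. The full-length Itgb1-201 held 5.66 TPM (17.8%) and 7.13 TPM (8.91%), and the retained-intron form Itgb1-203 held 2.76% and 0%. The deposited intervals for Itgb1-201 were 5.07 to 6.17 TPM and 5.30 to 8.46 TPM, so its level overlapped between libraries, while those for Itgb1-202, 24.0 to 25.9 and 65.1 to 71.8 TPM, did not. The sources used here do not state the level of these intervals. Itgb1-202 also ends 583 bases before Itgb1-201, so reads in the shared exons and at the 3′ end bear on the split as well as the junctions printed above.

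**Figure D2:**
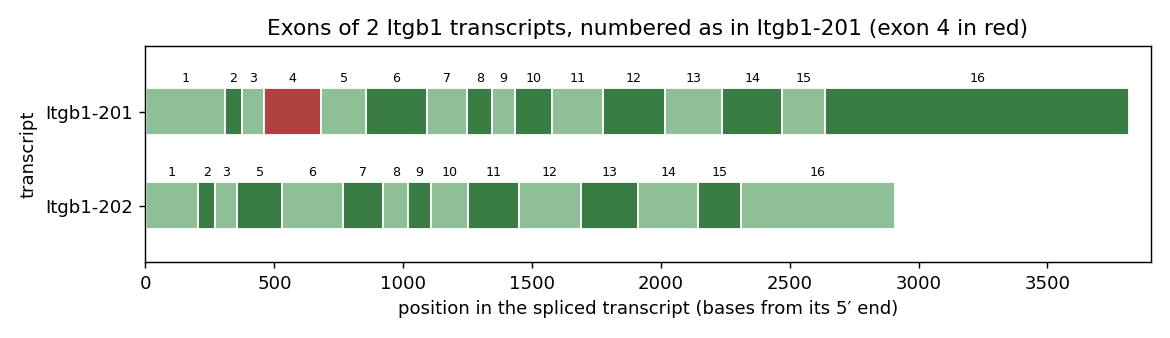
Exons of the transcripts Itgb1-201 and Itgb1-202 to scale along the spliced RNA (horizontal axis, bases from the 5′ end), numbered as in Itgb1-201, with alternating shades and exon 4 in red. Itgb1-202 lacks the 223 bases of exon 4 and has a shorter last exon.

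In Itga4 the coding transcript Itga4-201 had 2.32 TPM, or 13.9% of the gene, in replicate 1 and 1.14 TPM, or 15.6%, in replicate 2. It is 9767 bases long, 6604 of them in its last exon, and it took 50.7% and 48.2% of the gene's counts. Its share by counts was therefore over 3 times its share by TPM, since the other transcripts are shorter. Itga4-204, which reads into the intron after exon 4, led in replicate 1 with 11.2 TPM (67.5%) and held 1.24 TPM (17.0%) in replicate 2. Itga4-205, which reads 1553 bases beyond exon 2, led in replicate 2 with 3.54 TPM (48.6%) and held 2.58 TPM (15.5%) in replicate 1. The deposited intervals of Itga4-204 were 9.95 to 12.1 TPM in replicate 1 and 0.0866 to 2.64 TPM in replicate 2, without overlap, and those of Itga4-205 overlapped. By counts rather than TPM, Itga4-201 led in both libraries.

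Counting coding transcripts alone, Itgb1 averaged 6.40 ± 1.04 TPM and Itga4 1.73 ± 0.834 TPM, against 250 ± 49.4 TPM for Tspan33. The order of the 4 means stayed as it was. Within replicate 2 it did not, since Itgb1 exceeded Cd24a by gene TPM and lay below it by coding TPM (7.13 and 48.6 TPM). A transcript of another type than protein coding led in both libraries for Itgb1 and Itga4, 2 of the 3 present genes with several transcripts, where this held for 20.2% of all 5406 protein-coding genes at that level. Over those genes the median coding share was 91.6% (replicate 1) and 94.4% (replicate 2) of TPM, and 7.95% of them lay at or below Itgb1 in both libraries and 8.05% at or below Itga4. Globin genes varied in this measure: Hbb-bs had 0.0942% and 0.934% of its TPM on transcripts typed as protein coding, and Hba-a1 had 4.6% and 100%. Such low shares were not limited to globin genes, as Khdrbs1 had 1.69% and 0.433%. The types come from GENCODE M21 and the deposited values use M4. Whether annotation or the split between transcripts sets these shares was not tested. Coding TPM, here and below, is the TPM of transcripts so typed and may not equal the coding RNA. Shares of overlapping transcripts are model estimates from short fragments.

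Tspan33 was nearly all coding, 99.5% and 99.4% of its TPM. Its transcripts were split differently between the libraries. Tspan33-201, with the 3 extra bases, held 130.1 TPM in replicate 1 (60.2%) and 285 TPM in replicate 2 (99.4%). Tspan33-202, without them, held 85.2 TPM (39.4%) and 0 TPM. The deposited intervals of Tspan33-202 were 78.8 to 91.2 TPM and up to 8.55 TPM, without overlap, at gene counts of 27487 and 6003. The 2 forms share all other coding sequence, so the split turns on the 3 bases printed in capitals and on a few bases at the ends. The retained-intron form Tspan33-203 held 1.06 and 1.63 TPM.

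**Figure D3:**
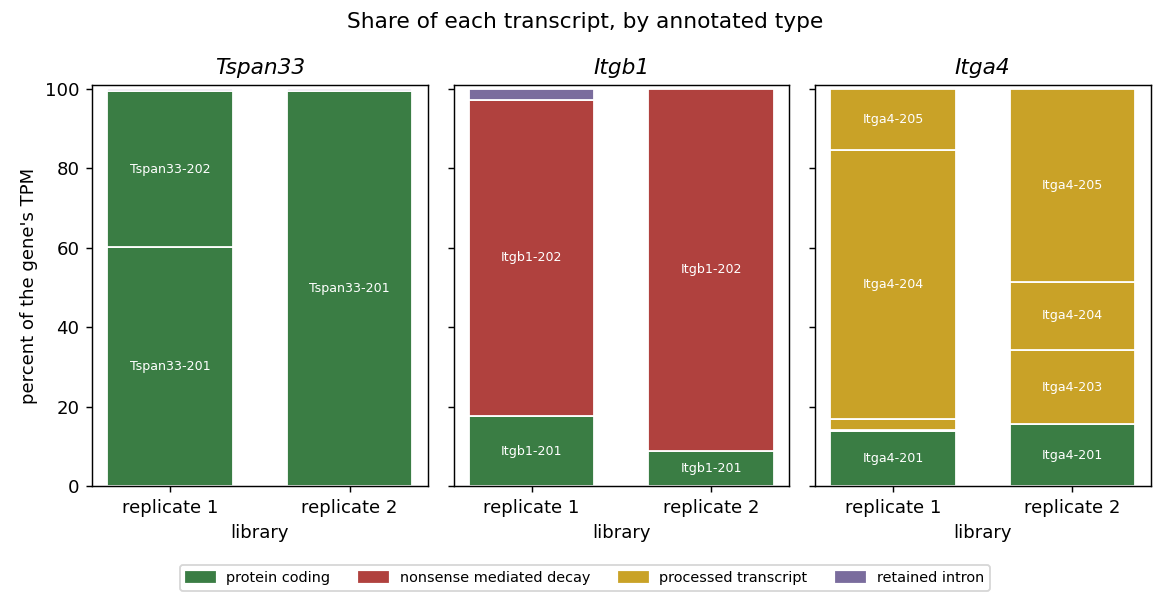
Percent of each gene's TPM (vertical axis) held by each transcript of Tspan33, Itgb1 and Itga4 in replicates 1 and 2, coloured by annotated type. Coding forms fill Tspan33, the form marked for nonsense-mediated decay fills most of Itgb1, and coding Itga4-201 stays at 13.9% and 15.6% while Itga4-204 and Itga4-205 exchange the lead.

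Cd44 had too few counts for a reading of its variant exons, the cassette that lengthens the extracellular stem. In replicate 1 its 47 counts were put on Cd44-203, the standard form with 0 variant exons (17.1 counts), and Cd44-207 with 5 (29.9 counts). In replicate 2 its 11 counts went to Cd44-201 with 10 variant exons (6.02 counts) and Cd44-208 with 7 (4.98 counts). No Cd44 form had counts in both libraries. Of the 3 present genes with several transcripts, 2 had the same leading form in both libraries, against 65.4% of 5519 genes.

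Between the libraries the 4 present genes had a median absolute log2 ratio of 1.09, beside 0.95 for all genes tested. Counts were scaled by TMM, and a two-sided exact binomial test asked whether a gene's counts split between the libraries as their scaled sizes do. Over 8895 genes with Benjamini-Hochberg adjustment, a gene was called where the adjusted p was below 0.05 and the libraries differed 2-fold or more. This compares these libraries and not conditions, and it covers counting error only. Of all genes tested 47.8% were called, 30.2% higher in replicate 1 and 17.7% higher in replicate 2, and 2 of the 4 genes were called, a share near that background. With total counts as the scale 78.9% of all calls were higher in replicate 1, against 63.1% with TMM.

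Cd24a was 2.54-fold higher in replicate 1 (log2 1.34, adjusted p = 5.22e-217 by the exact test). Itgb1 was 2.74-fold higher in replicate 2 (log2 of replicate 1 over replicate 2 of -1.45), with an adjusted p too small for the calculation to hold. Itga4 was 1.78-fold higher in replicate 1 (log2 0.83, adjusted p = 2.15e-21 by the exact test) and Tspan33 1.46-fold higher in replicate 2 (log2 -0.55, adjusted p = 6.9e-145 by the exact test), both under the 2-fold limit. The median log2 ratio of all tested genes was 0.21 with TMM, 0.14 with DESeq2 size factors and 0.61 with total counts. With total counts Itga4 was called as well (log2 1.23), and a 1.5-fold limit also added it. The 4 directions were the same under these scalings.

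**Figure D4:**
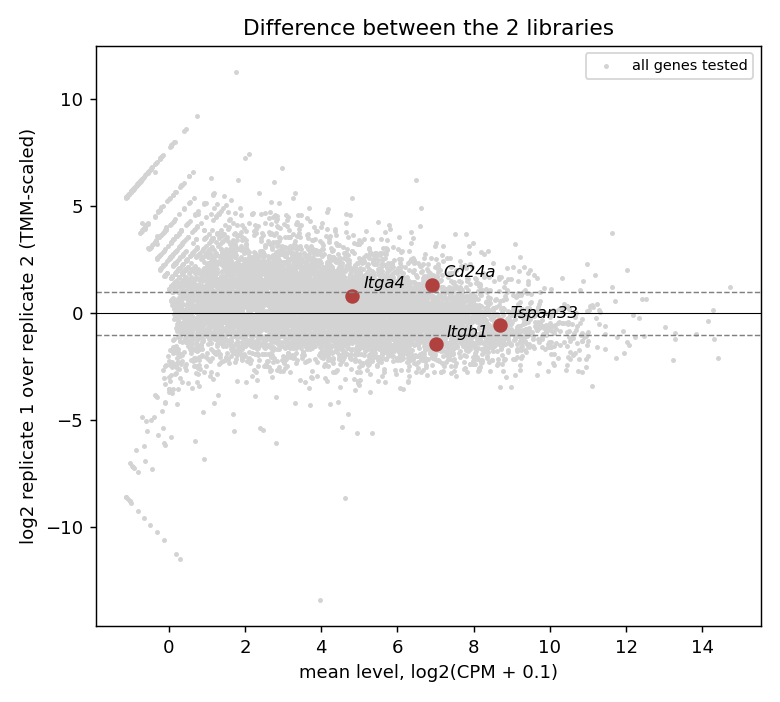
Log2 of replicate 1 over replicate 2 after TMM scaling (vertical axis) against the mean of log2(CPM + 0.1) over the libraries (horizontal axis) for the 8895 genes tested, in grey, with Tspan33, Itgb1, Cd24a and Itga4 in red and 2-fold limits dashed. Cd24a lies above and Itgb1 below the limits, inside the spread of the other genes.

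Over the 2 libraries, the protein-coding gene nearest to each present gene in log2(TPM + 0.1) was Fbrs for Tspan33 (Euclidean distance 0.063), Eif3k for Cd24a (0.022), Cant1 for Itgb1 (0.050) and Rfxank for Itga4 (0.022). Fbrs, for example, had 219 and 299 TPM. Each was picked as the nearest of all protein-coding genes, so a small distance follows from the search and shows no link between the genes. Each likeness rests on 2 libraries.

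The rest of the integrin family showed which chains stood beside Itgb1 and Itga4. Of 18 alpha chains 4 had at least 1 TPM in both libraries, and 8 had 0 counts in both. Itgav, which pairs with Itgb1 and other beta chains to bind matrix proteins and ICAM4, was the highest by mean, with 13.1 and 73.0 TPM. In replicate 1 Itga4 was higher than Itgav, with 16.7 TPM. Itga7, a laminin receptor chain, had 1.30 and 22.4 TPM, and Itga2b, the platelet chain, had 3.32 and 3.27 TPM. Itga10, the highest alpha chain with counts in both libraries but under 1 TPM in one, had 0.12 and 0.11 TPM. Itgav and Itga7 were called higher in replicate 2, and on coding transcripts alone Itgav held 12.4 and 70.7 TPM. In that measure Itgav exceeded Itga4, which had 2.32 and 1.14 TPM. Itga2b had 0.61 and 0.04 TPM on coding transcripts, under 1 TPM in both libraries.

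Of 8 beta chains 3 were present. Besides Itgb1 these were Itgb2 (5.68 and 1.01 TPM) and Itgb7 (3.09 and 3.31 TPM), which can also pair with the Itga4 chain. Itgb3 had 0.42 and 0.84 TPM. Itgb2 was called higher in replicate 1, opposite to Itgb1. Itgb1 was the highest beta chain in both libraries by gene TPM, and in coding TPM it stood at 5.66 and 7.13 beside 3.08 and 3.31 for Itgb7. Itgb2 had 2.53 and 0 coding TPM, so its presence in replicate 2 rested on transcripts of other types.

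**Figure D5:**
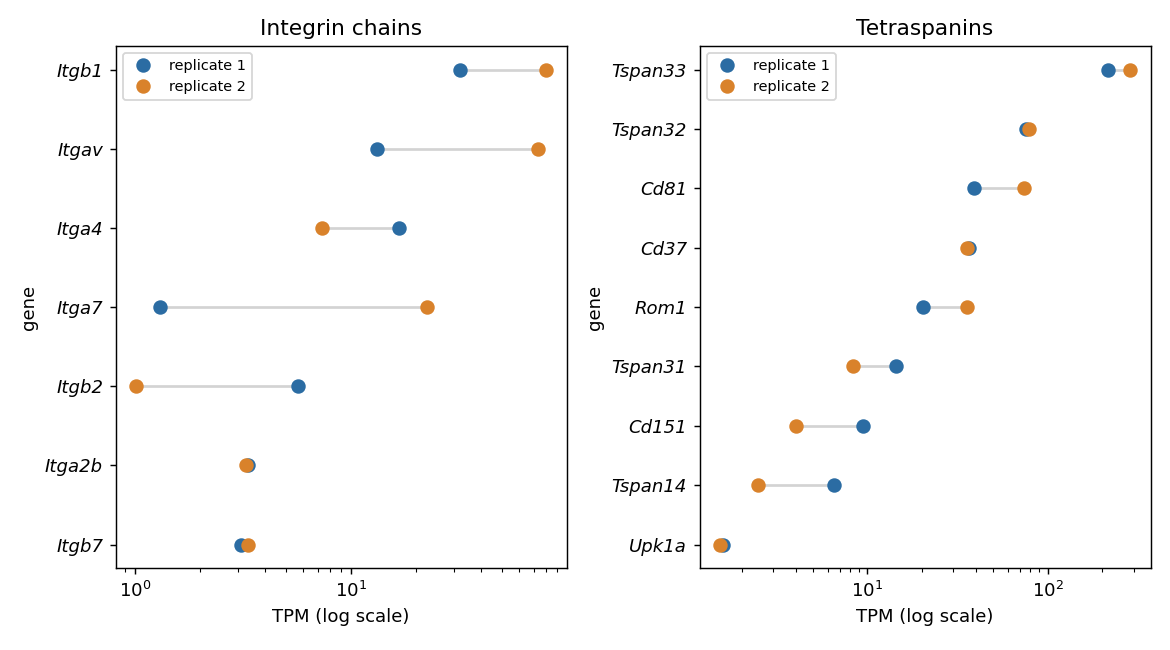
TPM (horizontal axes, log scale) in replicates 1 and 2 of the integrin chains (left) and tetraspanins (right) with at least 1 TPM in both libraries; grey lines join the 2 libraries of a gene. Itgb1 and Tspan33 lead their panels, and Itga7 shows the widest gap of the 16 genes drawn.

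Genes that link integrins to the cytoskeleton were present in greater number: 18 of 28 adaptors and activators reached 1 TPM in both libraries. Fermt3, the blood cell kindlin that activates integrins, had 1238 and 1082 TPM, talin Tln1 had 92.3 and 100.5 TPM, and the adaptor Crk had 71.9 and 139 TPM. Rasgrp2, an activator of the GTPase Rap1, had 2.89 and 0.87 TPM. Of 22 tested in this list 3 were called higher in replicate 1 and 2 in replicate 2, where 47.8% of all genes tested were called. Of 14 integrin ligands 3 were present, or 21.4%, beside 17.2% of all gene entries, coding or not. They were Icam4, a red cell ligand of integrins (51.0 and 24.6 TPM), and the laminin chains Lama5 (36.1 and 26.1 TPM) and Lamc1 (3.17 and 3.04 TPM). Emilin1 had 0.49 and 0.12 TPM. Of 8 genes of the erythroblastic island, the macrophage with its ring of red cell precursors, Icam4 and the attachment protein gene Maea (37.2 and 15.8 TPM) were present, and Efnb2 had 0.29 and 0.30 TPM.

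Tspan33 led the tetraspanin family, of which 9 of 31 genes were present and 12 had 0 counts in both libraries. Tspan32 had 75.8 and 79.3 TPM and Cd81 39.2 and 74.0 TPM, so Tspan33 exceeded each without overlap of the libraries. On coding transcripts alone Tspan32 had 58.4 and 51.4 TPM and Cd81 30.6 and 17.6 TPM, both higher in replicate 1. Among the 6 TspanC8 genes only Tspan33 and Tspan14 (6.56 and 2.48 TPM) reached 1 TPM in both libraries. Tspan17 had 0.22 and 0.96 TPM, Tspan10 0.09 and 0.17 TPM, Tspan15 0.04 and 0.03 TPM, and Tspan5 had 0 counts. Their partner Adam10 had 78.9 and 40.1 TPM (59.5 ± 27.4 TPM), and Tspan33 over Adam10 was 1.45 and 2.83 on the log2 scale. The list of partners had 3 of 4 present, with Adam17, a related protease, at 20.8 and 8.87 TPM and Igsf8 at 6.04 and 3.66 TPM.

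Many partners of the CD44 protein were present by their RNA. Of 14 genes for CD44 partners and hyaluronan handling 9 reached 1 TPM in both libraries: the membrane linker ezrin, Ezr, had 639 and 106 TPM, its relative merlin, Nf2, 64.5 and 342.5 TPM, and the hyaluronidase Hyal2 38.9 and 57.9 TPM. Ezr was called higher in replicate 1 and Nf2 in replicate 2. Mmp9 had 0.03 and 0.09 TPM. Of 6 regulators of CD44 splicing 4 were present, Srrm1 (594 and 1385 TPM), Khdrbs1 (161 and 552 TPM), Hnrnpm (431 and 43.7 TPM) and Tra2b (38.4 and 6.08 TPM, named after its value was seen). The other 2 were not present: Esrp1 had 0 counts in both libraries, and Esrp2 had 3 counts and 0. All 4 present regulators were called, 2 in each direction, where 47.8% of all genes tested were called. On coding transcripts alone Khdrbs1 had 2.73 and 2.39 TPM, so in that measure it was not higher in replicate 2. Srrm1 had 591.7 and 1385 TPM in that measure, Hnrnpm 152 and 29.2 TPM, and Tra2b 14.0 and 3.67 TPM.

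For Cd24a, 7 of 8 genes of GPI anchor synthesis were present. By gene TPM they were led by Gpaa1 (86.0 and 195 TPM), Pigt (41.8 and 61.1 TPM) and Pigv (12.8 and 19.9 TPM), while Piga had 0.93 and 0.13 TPM. On coding transcripts alone Gpaa1 had 19.64 and 36.55 TPM, below Pigt with 41.12 and 61.13 TPM. None of 3 genes for CD24 ligands was present: Cd22 had 0.05 and 0.27 TPM, Selp 0.01 and 0 TPM, and Siglecg 0 counts. Beside Cd36 with its 0 counts, 10 of 18 genes of fatty acid uptake and use were present. The mitochondrial enzyme gene Cpt2 had 65.8 and 264 TPM, and Scarb1, a scavenger receptor related to CD36, had 17.5 and 29.7 TPM. Acsl3 had 3.19 and 0.79 TPM.

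Other surface genes place the 4 present ones. Of 14 erythroid surface genes 12 were present, led by basigin, Bsg (844 and 942 TPM), the anion exchanger Slc4a1 (761 and 535 TPM) and Gypc (153 and 300.2 TPM). The mean of Tspan33 was close to that of Gypc, and their libraries overlapped. Of 12 progenitor surface genes 1 was present, the cytokine receptor chain Csf2rb (1154 and 4811 TPM). Kit, the stem cell factor receptor that is lost early in red cell maturation, had 0.97 and 0.67 TPM, and Eng had 0.16 and 0.24 TPM. Cd44 lay below Kit in both libraries. Across the 21 lists, 216 genes were measured and 92 of them were present.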

How the data were processed

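Per the labels, polyadenylated RNA was sequenced in 2 libraries of 1 group, and the deposited tables use mm10 with GENCODE M4 per the text beside them. Per the file headers, each table holds estimated counts, TPM and FPKM, also as posterior means, with interval bounds for the posterior mean TPM. Transcript shares are the deposited percent of the gene's TPM. Not given in the sources used here were the aligner, the quantification tool and the use of strand. A later series supersedes this one per its title and was not used here.

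The 26345 entries that are not genes (3 counts and 0) were left out. Symbols came from a table of mouse gene identifiers and names, and positions and transcript types from GENCODE M21, all by identifier without version, naming 42462 genes and 101510 transcripts. Estimated counts were rounded and scaled by TMM (factors 1.15 and 0.871) in edgeR 4.0.16, then tested in scipy 1.17.1 where mean CPM was at least 1, with a prior count of 0.5 for log2 ratios. With 1 group edgeR's own test has no contrast. A gene was called present with at least 1 TPM in both libraries. The calculation was tested on simulated counts that held counting error only, so that test does not cover further spread between libraries. Python 3.11.15, pandas 2.3.3, numpy 2.4.6, matplotlib 3.10.9, R 4.3.3 and DESeq2 1.42.0 (size factors) were used.

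The members and lists were chosen with earlier results of these data known. Named genes are the 8 members, the 3 highest of each list and its highest under 1 TPM in a library but at 0 in neither, the genes of the ratios, the TspanC8 genes and Adam10, and the nearest gene to each present member. Tra2b, Esrp1 and Esrp2 were named outside that rule. A gene that the rule takes in is not reported here. Alternatives were other minimum levels, posterior means, other scalings, pseudocounts and folds, coding transcripts alone, and each library alone.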

Additional observations from a re-analysis of the deposited data

How the results depend on the processing

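The counts of present genes, called genes, ratios and leading transcripts stayed within 1.5 times their value under the alternatives below. Beside these, 33 values of single genes, ratios or lists moved by more than the spread between the libraries or, for counts, by over 1.5 times. For levels and ratios, each library alone could not count as moved, since each of 2 values lies within 1 SD of their mean. The 4 present genes were 4 at 0.5 TPM, 5 TPM, 1 FPKM, in posterior means and in each library alone, and 5 with at least 10 counts in both libraries, which adds Cd44. The genes called between the libraries were 2 with DESeq2 size factors, a mean CPM of 10, no minimum and posterior mean counts, and 3 with total counts or a 1.5-fold limit, with Itga4 added. Of all genes, 47.8% were called with DESeq2 size factors, 50.5% with total counts, 44.3% with a mean CPM of 10, 39.9% with no minimum and 66.9% at 1.5-fold. By counts all 3 genes with several transcripts had the same leading form, against 2 by TPM. The 11 ratios kept their direction, which 0 counts fixed in 5 of them. With a pseudocount of 1 the log2 ratio of Itga4 over Itga5 was 3.60 and with 0.1 it was 6.80, and that of Cd24a over Cd36 6.36 and 9.67, since the pseudocount sets the size of a ratio over 0 counts. The deposited posterior means put Cd44 at 0.55, Tspan8 at 0.13 and Cd36 at 0.06 TPM. Of the pathway genes 92 were present, 64 at 5 TPM and 103 with 10 counts. Depth limits replicate 2 most, where 3 counts of Cd36 are 0.0799 TPM. No paired analysis was possible because there is 1 group.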
